A study of Schizosaccharomyces pombe with 2 samples.

Results

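The 6 genes nmt1, thi2, thi4, thi9, bsu1 and ntf1 encode enzymes, transporters and a regulator of vitamin B1 (thiamine) and vitamin B6 (pyridoxine) supply in the fission yeast Schizosaccharomyces pombe. They are grouped here under the name of thiamine-repressed genes, with ntf1 included as a regulator. They were chosen by name, taking probe sets with a signal above 0 whose gene symbol or synonym was 1 of the 6. All 6 were found, each with 1 probe set, among 2896 named S. pombe genes. The gene called ntf1 carries the symbol thi1 in the reference annotation. The array also holds probe sets of Saccharomyces cerevisiae, of which 3 are named NMT1, THI2 and THI4. These were listed at 0 in both arrays and were not taken as members.

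The study compared the strain ST3479, labelled SD5 and described as subtelomere-deleted, with the strain JP1225, labelled wild-type. Both strains are labelled mating type h-, grew exponentially in YES, a rich medium made with yeast extract, at 32 °C and were measured on 1 array each. Neither strain has a replicate, so no test was possible, each ratio describes these 2 arrays, and a strain and its culture cannot be told apart. The sources used here do not say which subtelomeres SD5 lacks, and no cells grown without thiamine were measured.

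Fission yeast builds thiamine from a pyrimidine and a thiazole precursor, which are made separately and then joined, and it can also import the vitamin. The finished cofactor, thiamine diphosphate, serves enzymes such as pyruvate dehydrogenase. Yeast cells with enough thiamine repress the synthesis genes, and the nmt1 promoter, named for "no message in thiamine", is widely used as a switch for gene expression. A zinc-finger transcription factor encoded by ntf1 is needed to turn these genes on.

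The median signal of 4999 S. pombe probe sets was 998 in SD5 and 1168 in the wild-type, in linear intensity units. Background was taken from 79 control and reporter probe sets, at their 95th percentile, and was 26.6 in SD5 and 17.7 in the wild-type. These probe sets were chosen by their names, and whether any can match an S. pombe transcript was not checked. Their median signal was 2.92 in SD5 and 2.47 in the wild-type, so the brightest few of them set the background. Ratios are given as log2 of SD5 over wild-type, after subtracting their median over probe sets above background in both arrays, which was -0.20. After centring, the 2865 named genes with a ratio had quartiles of -0.07 and 0.07, and the central 95% of them lay between -0.28 and 0.26. Of the M-cell markers that fit the labelled mating type, 5 of 5 were above background, from 72.0 (mfm1) to 2965 (mfm2) in SD5 and from 60.8 to 3259.89 in the wild-type. Of the P-cell markers 3 of 3 were also above it, from 70.2 (map2) to 209 (map4) in SD5 and from 70.9 to 267 in the wild-type. Of all 4999 S. pombe probe sets, 4848 in SD5 and 4934 in the wild-type were above background. Both marker counts are near that share, so they give no information on mating type.

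None of the 6 genes was 2-fold lower or higher in SD5, and all 6 were within 1.5-fold after centring. Only 8 of the 2865 named genes (0.279%) were 2-fold lower or higher, and only 23 (0.803%) were 1.5-fold lower or higher, so counts of 0 among 6 genes are close to the background. Of the 6, 4 had a log2 ratio below 0 and 2 above it, a split that moved with the setting. It was 6 below 0 without centring and 5 below and 1 above with centring on hybridisation controls. With the background as a pseudocount it was 3 below and 3 above. After quantile normalization, where nmt1 was at 0, and for a background raised to the 10th percentile of all S. pombe signals, where nmt1 had no ratio, it was 3 below and 2 above. The median log2 ratio of the 6 was -0.04, beside 0.00063 over all named genes. The ratios ran from -0.33 for thi9 to 0.17 for bsu1, a span of 0.50 (SD 0.20 over the 6 genes, which are not replicates).

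**Figure D1:**
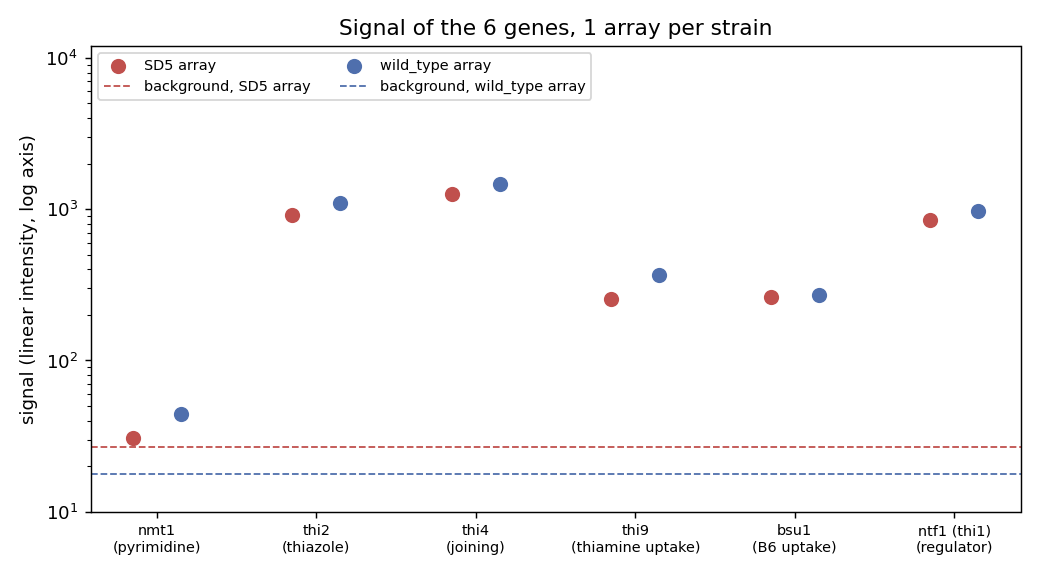
Signal of each of the 6 genes on a log axis in linear intensity units, SD5 (left, red) and wild-type (right, blue), 1 point per array, with each array's background as a dashed line. The nmt1 signal lies just above background (30.8 in SD5 and 44.5 in the wild-type), while the other 5 genes lie between 255 and 1477.

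Among the synthesis genes, nmt1 (SPOM_SPCC1223.02), which encodes the enzyme that makes the pyrimidine precursor, was the dimmest. Its signal was 30.8 in SD5 and 44.5 in the wild-type, that is 1.16 and 2.52 times the background of each array. The centred log2 ratio was -0.33 (0.796-fold). In each array the same number of S. pombe probe sets, 164 of 4999, had a lower signal than nmt1, so its place in the order of signals did not differ between the strains. Accordingly its log2 ratio was 0 after quantile normalization, which aligns arrays by that order. It was 0.07 with the background added as a pseudocount, and no ratio was left when the background was raised to the 10th percentile of all S. pombe signals. The direction for nmt1 therefore depends on how signals near background are treated.

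The other synthesis genes had close levels in both strains. The thiazole synthesis gene thi2 (SPOM_SPBC26H8.01), also called nmt2, had a signal of 918 in SD5 and 1103 in the wild-type. Its centred log2 ratio was -0.06 (0.958-fold), and its signal was 34.5 times background in SD5 and 62.3 times in the wild-type. These multiples refer to each array's own background (26.6 in SD5 and 17.7 in the wild-type), so they do not compare the strains. The gene thi4 (SPOM_SPAC23H4.10C) encodes the enzyme that phosphorylates the thiazole and joins it to the pyrimidine. It had 1262 in SD5 and 1477 in the wild-type, with a log2 ratio of -0.02 (0.984-fold). Of the 4999 S. pombe probe sets, 2345 in SD5 and 2390 in the wild-type had a lower signal than thi2. For thi4 these numbers were 2872 and 2880. Unlike nmt1, thi2 and thi4 were thus not among the dim probe sets in this rich medium. Signals of different probe sets also depend on their probes, so this order need not be that of transcript levels. How far thiamine held any of these genes down was not tested, as no cells grown without it were measured. The 200 probe sets closest in mean signal had ratios with an SD, taken from the interquartile range, of 0.11 for thi2 and 0.087 for thi4. Both genes lay within that spread, which is a spread between probe sets of this pair of arrays and not a replicate error. The difference in log2 ratio between nmt1 and thi2 was -0.27, and the spread around probe sets as dim as nmt1 was 0.36. The 200 probe sets closest to nmt1 in signal had a median of 0.08, and 22 of them had a lower ratio than nmt1.

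The genes of the membrane transporters had the extreme ratios of the 6 after centring. The ratio of bsu1 was the highest, and that of thi9 was the lowest, next to nmt1. The difference between them is therefore the span of the 6 and not that of a pair chosen beforehand. The thiamine transporter gene thi9 (SPOM_SPAC9.10) had 255 in SD5 and 369 in the wild-type, a centred log2 ratio of -0.33 (0.795-fold). Only 44 of the 2865 named genes had a lower ratio. Among the 200 probe sets closest in signal, 9 were lower, with a median of -0.04 and an SD of 0.14. The signal was 9.58 times background in SD5 and 20.9 times in the wild-type, each against its own array's background, so unlike nmt1 it was well above background. The ratio of thi9 and that of nmt1 were 0.0027 apart, and nmt1 was the lower after loess normalization (-0.41, against -0.31 for thi9) and after subtraction of the median control signal (-0.39, against -0.34 for thi9). The ratio of thi9 was below 0 under the 8 alternative settings that could change it, from -0.53 to -0.26, and did not reach 2-fold under any of them. Raising or lowering the background level moved this ratio only through the centring (-0.331 either way), since thi9 lay above each level tried. Those settings are therefore a weak check. Taking the brightest probe set could not change the ratio, since each of the 6 genes had 1 probe set.

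The gene bsu1 (SPOM_SPAC17A2.01), also called car1, encodes the plasma membrane importer of pyridoxine. It had 264 in SD5 and 270.5 in the wild-type, nearly equal signals, and a log2 ratio of 0.17 (1.12-fold) once the general shift between the arrays was removed. Without centring the ratio was -0.03, so the sign of this value rests on the scaling. Of the named genes, 185 had a higher ratio, and of the 200 probe sets closest in signal 28 did. The ratio of thi9 was lower than that of bsu1 by 0.50 on the log2 scale (thi9 minus bsu1 -0.50), a difference that centring cannot change because both probe sets were measured on the same arrays. With 1 array per strain there is no error for this difference.

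The regulator gene ntf1 (SPOM_SPAC1486.10) had 853 in SD5 and 973 in the wild-type. Its log2 ratio of 0.01 (1.01-fold) was close to 0. Of the 2865 named genes, 1577 had a lower ratio and 1287 a higher one, which places it near the middle. The ratio was -0.19 without centring and -0.02 with centring on hybridisation controls.

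**Figure D2:**
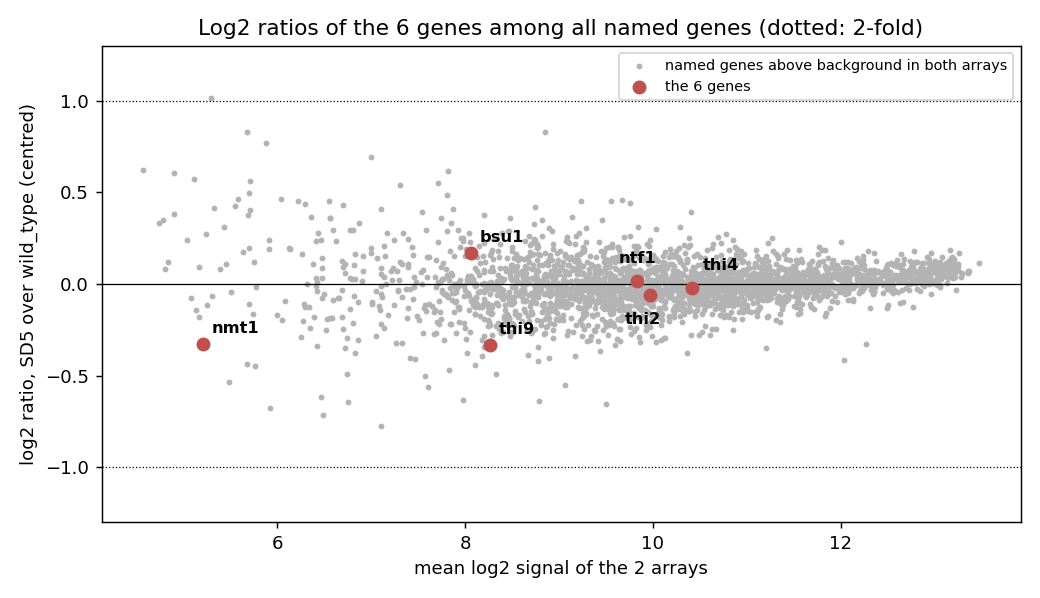
Centred log2 ratio of SD5 over wild-type (vertical axis) against the mean log2 signal of the 2 arrays, for named genes above background in both arrays (grey) and the 6 genes (red). The genes thi2, thi4 and ntf1 lie in the dense band around 0, thi9 (-0.33) at its lower edge, bsu1 (0.17) towards its upper edge, and nmt1 (-0.33) in the wide scatter of dim genes.

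All 6 genes lie in the interior of the chromosomes. In the order of protein-coding genes of assembly ASM294v3, which counts positions only, nmt1 is the 227th gene from the right end of chromosome III and thi2 the 235th from the right end of chromosome II. The other 4 are on chromosome I, thi9 as the 605th and thi4 as the 651st from the left end, and bsu1 as the 831st and ntf1 as the 973rd from the right end. Among the 2624 named genes with a ratio and at least 100 genes between them and a chromosome end, none differed 2-fold either way. Coordinates are not printed, as the sources used here do not name the build behind the array's probes.

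The genes next to the 6 had ratios near 0. Of the 12 adjacent protein-coding genes, 6 were measured by name. None of these was 2-fold lower or higher, a count close to the background (0.279% of all named genes were). Their log2 ratios ran from -0.04 (gut2, next to nmt1) to 0.10 (cdb4, next to thi4). Beside thi9, met26, the gene of methionine synthase, had 7862 in SD5 and 8565 in the wild-type (log2 ratio 0.08). The neighbour of thi2, sec9, had -0.03, that of ntf1, tea3, had 0.08, and cnl2, on the other side of thi4, had 0.09. In the reference, thi4 overlaps cdb4, and each of the 6 overlaps at least 1 annotated long non-coding RNA. The sources used here do not say whether the probes of the 6 genes can also match those transcripts.

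The other thiamine genes were also close to 0. The list of thiamine genes held 10 distinct genes, of which 8 were measured: 5 of the 6 above and thi5, pho4 and tnr3. None of the 8 was 2-fold lower or higher (0.279% of all named genes were). The median of the list was -0.04, and that of the 3 genes outside the 6 was 0.02. The gene pho4, which encodes the acid phosphatase that thiamine represses, had 1003 in SD5 and 1135 in the wild-type, a log2 ratio of 0.02. The thiamine pyrophosphokinase gene tnr3, mutants of which fail to repress these genes, had 649 in SD5 and 709 in the wild-type (0.08). The transcription factor gene thi5 had 353 in SD5 and 434 in the wild-type (-0.10).

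For vitamin B6, 3 of 6 listed genes were measured, and all 3 were above 0 after centring but below 0 without it in the list's median (0.10 centred, -0.10 without). Besides bsu1 these were plr1, the pyridoxal reductase gene, with 5999.96 in SD5 and 6437 in the wild-type, and snz1, a gene of pyridoxal phosphate synthesis, with 5953 in SD5 and 6396 in the wild-type. Both had a log2 ratio of 0.10. None of the 3 was 2-fold lower or higher (0.279% of all named genes were).

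Of 11 listed genes of complexes that use thiamine diphosphate, 5 were measured, and their ratios lay between -0.05 and 0.02. The pyruvate dehydrogenase genes pda1 (4022 in SD5 and 4586 in the wild-type), pdb1 and pdx1 had log2 ratios of 0.01, 0.02 and 0.02. The acetolactate synthase gene ilv1 had -0.0010, and kgd2, which encodes a subunit of the 2-oxoglutarate dehydrogenase complex that does not itself bind the cofactor, had -0.05. The list of other vitamin genes gave 4 values among 6 genes. These were bio2 for biotin synthesis (0.04), liz1 for pantothenate uptake (-0.02), vht1 for biotin uptake (-0.12) and nic1 (-0.27), which encodes a nickel transporter and so is not a vitamin gene. The list also held mpc1, the gene of a mitochondrial pyruvate carrier subunit, which had no named probe set. The median of the list was -0.07 with nic1 and -0.02 over the 3 genes without it. The signal of nic1 was 175 in SD5 and 243 in the wild-type. In these 4 lists, the 14 measured genes outside the 6 ran from -0.27 to 0.10 with a median of 0.02. None of the 14 was 2-fold lower or higher (0.279% of all named genes were).

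**Figure D3:**
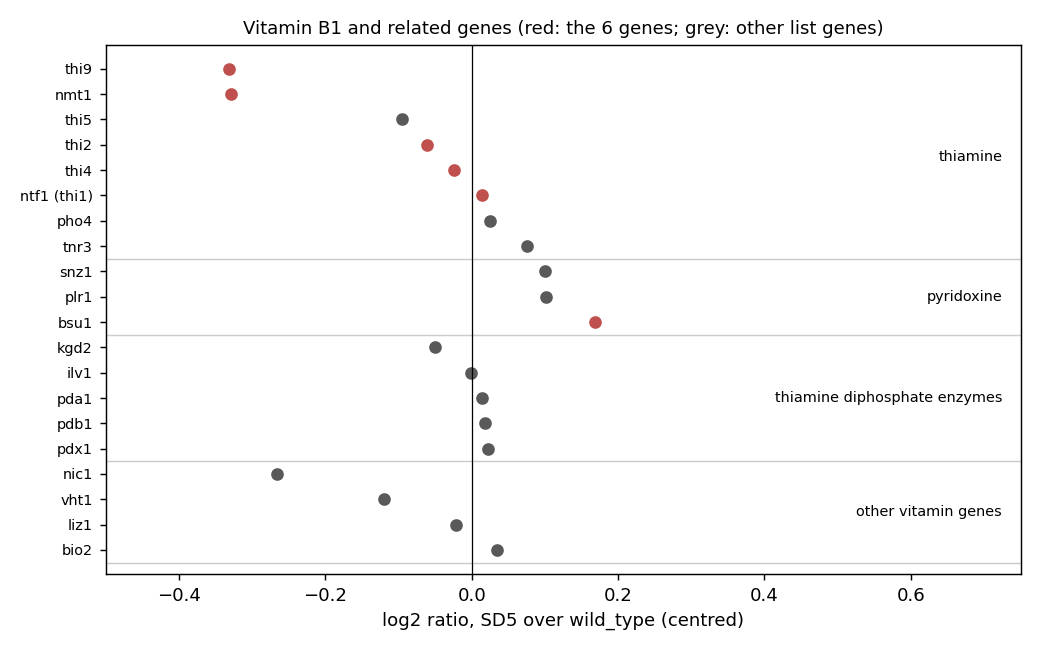
Centred log2 ratio of SD5 over wild-type for each measured gene of 4 lists, 1 point per gene, with the 6 genes in red and other list genes in grey. Only thi9 and nmt1 (both -0.33) lie below -0.30, and bsu1 (0.17) is the highest.

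The genes most like each of the 6 were sought by distance between log2 signals over the 2 arrays, among 2845 other named genes. For thi9 the nearest were mok12 (265 in SD5 and 369.55 in the wild-type) and tel1, at distances of 0.055 and 0.076. For bsu1 they were mug2 and mto1, at 0.017 and 0.044. For thi2 they were mis17 and sec61, for thi4 syp1 and cdc45, and for ntf1 mns1 and rds1, the farthest of them being rds1 at 0.024. The genes nearest to nmt1, syf2 and crp79, were farther away, at 0.12 and 0.16. Signals of different probe sets also depend on their probes, and 2 arrays give a weak measure of likeness: 60 genes lay within 0.1 of thi2, 71 of thi4, 47 of ntf1, 10 of bsu1, 6 of thi9 and 0 of nmt1.

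**Figure D4:**
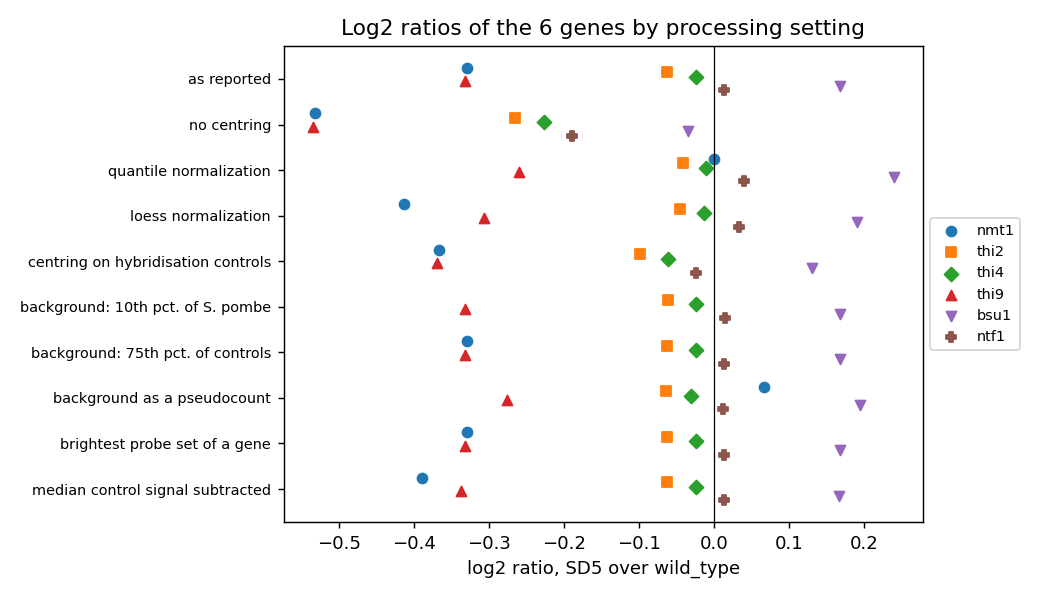
Log2 ratio of SD5 over wild-type for each of the 6 genes (markers) as reported and under 9 other settings (rows). The values of thi9 stay between -0.53 and -0.26, those of bsu1 are above 0 except without centring (-0.03), and nmt1 runs from -0.53 to 0.07 and has no value at the highest background tried.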

How the data were processed

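Per the labels' protocols, polyadenylated RNA was purified from Trizol extracts, and biotin-labelled cRNA was made with a 3′ IVT Express kit from 5 ng of it. The submitters' processing notes name GCOS 1.4 without its role. The authors deposited 1 linear intensity per probe set for each array; the sources used here do not give the probe summary, scaling target or mask. Rows at 0 in both arrays (5748 of 10928) were left out, and 4999 S. pombe probe sets remained, of which 2914 matched 2896 genes of assembly ASM294v3.

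Signals below background (95th percentile of 79 control and reporter probe sets) were set to it, log2 ratios were centred on the median, and a gene's ratio was the mean over its probe sets. Calls were made at 2-fold. The calculation was tested on simulated data, only with changes larger than 2-fold in probe sets brighter in the wild-type than nmt1, thi9 and bsu1. That test does not cover ratios as small as those of the 6 genes, or signals near background. The 6 genes, the lists and the rule for named genes (all 6, short lists in full, the 2 nearest genes in signal, adjacent genes) were chosen with earlier results of these data known. The tables used here held no sequences, so no promoter was searched. Python 3.11.15, numpy 2.4.6, pandas 2.3.3 and statsmodels 0.14.6 were used. The number of arrays, 1 per strain, limits the precision.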

Additional observations from a re-analysis of the deposited data

How the results depend on the processing

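The counts of 0 genes at 2-fold, for the 6 genes and for the 4 lists, did not differ under 8 other settings, nor under subtraction of the median control signal, which was chosen after seeing the data. Taking the brightest probe set, 1 of the 8, could not change these counts, as each measured gene had 1 probe set. Another background level moved genes that lay above it only through the centring. Without centring, every value moved with the shift of -0.20: the medians were -0.25 for the 6 genes, -0.25 for the thiamine list, -0.10 for the pyridoxine list, -0.19 for the thiamine diphosphate list and -0.27 for the list of other vitamin genes, nic1 included. The pyridoxine median was 0.055 after loess normalization, and the thiamine diphosphate median was -0.023 with centring on hybridisation controls. The median of the 6 genes stayed between -0.25 and -0.0053. Ratios of thi2 ran from -0.26 to -0.04, of thi4 from -0.23 to -0.01, of thi9 from -0.53 to -0.26, of bsu1 from -0.03 to 0.24 and of ntf1 from -0.19 to 0.04. For nmt1 they ran from -0.53 to 0.07, and its signal, 1.16 times background in SD5, limits that value. No paired analysis was possible because each strain had 1 array, and no replicate could be left out.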
